A study of Mus musculus with 12 samples.

Results

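Immediate early genes were followed here in mouse fat grafts through 10 named genes: Fos, Fosb, Jun, Junb, Atf3, Egr1, Nr4a1, Ier2, Dusp1 and Zfp36. They were chosen by name from the 19547 genes of the deposited table, with earlier results of these data known. All 10 passed the filter on low counts that left 18551 genes for testing. The grafts came from wild-type C57BL/6 mice aged 16 weeks and were profiled at 8 weeks of grafting, with 4 RNA libraries in each of 3 groups. The CAL_Dll4i group received ASC (adipose-derived stem or stromal cells, as the term is commonly used) together with inhibition of the Notch ligand Dll4. The CAL group (cell-assisted lipotransfer) received ASC alone, and control grafts received no added ASC. Wild-type genotype, strain and age were shared by all 12 samples, and the labels do not name the Dll4 inhibitor, its dose or the source of the ASC. The comparisons asked whether added ASC, and Dll4 inhibition on top of it, changed graft transcripts. The labels do not say that each sample came from its own animal, so p-values measure the spread between these samples, which may be technical.

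Immediate early genes are the first genes transcribed when a cell is stimulated, because the factors that switch them on, such as SRF with its ETS partners and CREB, are already present and need only be phosphorylated by MAP kinases or protein kinase A. Their messenger RNAs are usually made in a short burst and then degraded through AU-rich elements in the 3′UTR. In adipose tissue these genes respond to hormones, growth factors, cytokines and mechanical stress, in adipocytes as well as in stromal, vascular and immune cells. Fos, Fosb, Jun, Junb and Atf3 encode leucine zipper proteins, of which Fos and Jun family members pair as the transcription factor AP-1. Egr1 encodes a zinc finger transcription factor, Nr4a1 the orphan nuclear receptor Nur77 and Ier2 a small nuclear protein. Dusp1 encodes a phosphatase that switches off MAP kinases, and Zfp36 encodes tristetraprolin, which binds AU-rich elements and speeds messenger RNA decay.

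Promoters are shown for 4 of the genes whose window held the CRE core TGACG, the pentamer shared by binding sites of CREB and ATF proteins: the 3 with at least 2 matches, and Fosb, whose transcript varied most between libraries. Each is the 250 bases before the RefSeq start, written 5′ to 3′ on the gene's own strand, with every TGACG or its complement CGTCA in capitals. On GRCm38.p6 the Fos window is chr12:85473640-85473889 on the plus strand and the Fosb window chr7:19310046-19310295 on the minus strand. The Nr4a1 window, chr15:101266596-101266845 on the plus strand, precedes a start inside the annotated gene, and the Dusp1 window, chr17:26508473-26508722, is on the minus strand. The Fosb window also precedes a start inside the annotated gene, and its TGACG lies within the span of that gene.
Fos: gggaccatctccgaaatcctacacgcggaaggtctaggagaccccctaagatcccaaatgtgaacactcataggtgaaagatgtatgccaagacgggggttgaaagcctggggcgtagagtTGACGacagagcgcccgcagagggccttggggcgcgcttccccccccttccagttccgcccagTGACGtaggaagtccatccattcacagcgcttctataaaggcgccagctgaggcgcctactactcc
Fosb: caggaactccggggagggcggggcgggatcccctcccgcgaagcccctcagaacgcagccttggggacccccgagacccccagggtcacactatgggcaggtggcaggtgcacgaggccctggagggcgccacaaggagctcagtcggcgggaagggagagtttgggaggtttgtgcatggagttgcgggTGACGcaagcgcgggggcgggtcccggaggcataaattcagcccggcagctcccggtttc
Nr4a1: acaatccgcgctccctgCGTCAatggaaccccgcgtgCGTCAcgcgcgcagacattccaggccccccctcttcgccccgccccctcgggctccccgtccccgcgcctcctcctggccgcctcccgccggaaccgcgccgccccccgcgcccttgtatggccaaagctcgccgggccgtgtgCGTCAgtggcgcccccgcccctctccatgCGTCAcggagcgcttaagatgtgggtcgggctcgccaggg
Dusp1: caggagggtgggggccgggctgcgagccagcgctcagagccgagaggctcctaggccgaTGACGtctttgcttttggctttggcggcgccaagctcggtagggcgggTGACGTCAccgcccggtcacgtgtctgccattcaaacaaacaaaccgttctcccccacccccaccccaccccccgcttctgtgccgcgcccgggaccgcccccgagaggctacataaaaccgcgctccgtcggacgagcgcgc

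Of the 10 genes, 8 matched the RefSeq promoter table, and Egr1 and Ier2 did not. The core TGACG, on either strand, was found in 6 of the 8 windows, against 25.0% of the windows of 12475 tested genes. Nr4a1 had 4 matches, Dusp1 3, Fos 2, and Atf3, Fosb and Junb 1 each, while Jun and Zfp36 had none. At least 2 matches were found in 3 of the 8 windows, against 6.40% of all windows. The full palindrome TGACGTCA, which contains the core on both strands, was present in Dusp1 alone among the 8 and in 2.48% of all windows. The AP-1 site TGANTCA was in none of the 8 and in 4.80% of all windows. The EGR site GCGNGGGCG was in Fosb, Zfp36 and Nr4a1 and in 8.03% of all windows, the CArG box bound by SRF was in Zfp36 and in 1.20%, and TATAAA was in Fos and in 7.49%. A match describes these letters in this window and is not evidence of a bound site.

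AU-rich sites are shown for the 3 genes whose 3′UTR held the nonamer TTATTTATT, the form that tristetraprolin prefers. They were read from GENCODE transcripts on GRCm38 with DNA letters, on the gene's strand, with the nonamer in capitals and 10 bases on each side. The Fos site is chr12:85477103-85477131, the first of 2 Dusp1 sites chr17:26506159-26506187 and the Zfp36 site chr7:28376951-28376979.
Fos: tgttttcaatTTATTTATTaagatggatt
Dusp1: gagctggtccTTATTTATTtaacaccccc
Zfp36: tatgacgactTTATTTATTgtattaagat

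The nonamer was found in 3 of 10 immediate early genes and in 8.20% of 14402 genes with a 3′UTR. The shorter motif ATTTA was found in 9 of 10, all but Ier2, against 69.4% of genes, and at least 3 copies stood in 6 of 10 (Fos, Jun, Dusp1, Atf3, Nr4a1 and Zfp36), against 38.0%. The genes are also compact: 7 of 10 span under 5 kb in RefSeq. In GENCODE 11.5% of 14513 protein-coding genes do, at a median span of 24125 bases. The span of a gene can differ between these annotations. Ier2 is the shortest at 1522 bases, Nr4a1 the longest at 20894 bases, and Jun, Junb and Ier2 have 1 exon each.

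Library totals ran from 55883051 to 70804141 counts, and all 10 adipocyte markers checked, from Adipoq to Fabp4, were present in every library with at least 49 counts. Skeletal muscle markers were high in CAL_Dll4i replicate 3, CAL replicate 1 and CAL replicate 2, up to 658.7 CPM (counts scaled to a common library size) summed, against a lowest sum of 3.05 CPM. For the immediate early genes themselves, control replicate 3 and CAL_Dll4i replicate 1 were the highest libraries, and CAL replicate 3 was the highest of its group by less. On the mean of the 10 genes' standardised log2 CPM, CAL_Dll4i replicate 1 stood at 1.27, CAL replicate 3 at 0.46 and control replicate 3 at 1.69, where the mean of all 12 libraries is 0. The highest value of its own group was in CAL_Dll4i replicate 1 for 8 of 10 genes, in CAL replicate 3 for 7 and in control replicate 3 for 9. Summed over the 10 genes, these libraries held 556.9, 466.9 and 599.0 CPM, against 369.9 to 449.3 CPM in the other 9. The libraries were singled out by these values, so their height is a description, and each comparison is given with and without them.

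Per length, on the deposited TPM scale, Zfp36 was the most abundant at 105 ± 18.2 TPM and Atf3 followed at 97.8 ± 8.02 TPM (mean ± SD over 12 libraries here and below). These did not differ beyond their spread, since Zfp36 was higher than Atf3 in 6 of 12 libraries. Fos stood at 68.4 ± 14.3 TPM and Dusp1 at 62.1 ± 16.1 TPM, with Fos higher in 9 of 12 libraries. Jun followed at 46.5 ± 4.42 TPM and Junb at 37.2 ± 8.62 TPM, with Jun higher in 10 of 12. Egr1 stood at 28.7 ± 10.7 TPM, Nr4a1 at 21.9 ± 10.7 TPM and Ier2 at 14.5 ± 2.82 TPM. Fosb was far below the rest at 0.810 ± 0.920 TPM. Atf3 over Fos, Dusp1 over Jun, and each step from Junb down to Fosb kept their order in 12 of 12 libraries.

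Of the 10 genes, Fosb varied most from library to library. The values that follow are CPM after TMM scaling. Fos (chr12:85473890-85477274, 4 exons) stood at 75.7, 63.6, 47.1 and 55.5 CPM in CAL_Dll4i replicates 1 to 4, at 54.4, 53.4, 74.8 and 51.1 CPM in CAL and at 52.8, 57.6, 88.5 and 52.9 CPM in control grafts. Its 3 highest libraries came from 3 different groups, and every pair of groups overlapped. Fosb (chr7:19302696-19310118), whose protein pairs with Jun proteins as Fos does, stood at 2.63, 1.32, 0.395 and 0.530 CPM in CAL_Dll4i, at 0.224, 0.449, 4.81 and 0.213 CPM in CAL and at 0.710, 0.610, 3.17 and 0.407 CPM in control grafts. Those values rest on 13 to 326 counts per library. The same 3 libraries were highest as for Fos, in another order, and CAL held both the highest and the lowest Fosb value of the study. Highest over lowest library came to 22.6-fold for Fosb and 1.88-fold for Fos.

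Of the Jun partners, Jun spanned less than Fos and Junb more. Jun (chr4:95049036-95052222), the main partner of Fos in AP-1, stood at 66.4, 67.8, 55.3 and 66.3 CPM in CAL_Dll4i, at 55.3, 68.0, 61.8 and 52.1 CPM in CAL and at 62.8, 65.1, 69.8 and 57.3 CPM in control grafts, a span of 1.34-fold. Junb (chr8:84976909-84978748), often a weaker activator than Jun, stood at 40.0, 29.4, 21.9 and 26.3 CPM in CAL_Dll4i, at 22.1, 24.9, 30.2 and 21.2 CPM in CAL and at 26.9, 30.4, 42.3 and 29.9 CPM in control grafts. Its highest libraries were control replicate 3 and CAL_Dll4i replicate 1, and its span was 1.99-fold. Atf3 (chr1:191170296-191183333), a stress-induced member of the ATF family, stood at 73.0, 88.6, 87.6 and 85.1 CPM in CAL_Dll4i, at 67.5, 88.9, 85.1 and 84.6 CPM in CAL and at 73.1, 83.4, 83.3 and 74.9 CPM in control grafts. Atf3 did not follow the others: CAL_Dll4i replicate 1, high for most of the genes, held the lowest Atf3 value of its group, and the span over 12 libraries was 1.32-fold. Jun overlaps the antisense gene Junos, Junb the gene Prdx2 on the other strand and Atf3 the small RNA gene Gm24748. The sources used here do not say whether counting used strand, so reads of these pairs cannot be told apart.

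Egr1 and Nr4a1 spanned the widest range after Fosb. Egr1 (chr18:34861207-34864956, 2 exons) stood at 62.7, 34.05, 23.2 and 28.5 CPM in CAL_Dll4i, at 28.2, 32.3, 50.1 and 28.5 CPM in CAL and at 34.3, 31.8, 64.3 and 27.0 CPM in control grafts. CAL_Dll4i replicate 1, CAL replicate 3 and control replicate 3 lay above 50 CPM and the other 9 libraries below 35 CPM. Nr4a1 (chr15:101253902-101274795, 8 exons) stood at 44.5, 24.2, 17.1 and 16.1 CPM in CAL_Dll4i, at 21.7, 20.5, 22.5 and 14.8 CPM in CAL and at 20.3, 18.2, 49.7 and 21.1 CPM in control grafts. Here CAL replicate 3 lay among the other libraries, unlike for Fos, Fosb and Egr1. Ier2 (chr8:84661331-84662852) stood at 12.4, 9.28, 7.78 and 8.10 CPM in CAL_Dll4i, at 9.30, 9.66, 8.37 and 7.57 CPM in CAL and at 8.72, 8.23, 13.1 and 8.39 CPM in control grafts, with the same 2 libraries high as for Nr4a1. The span was 2.77-fold for Egr1, 3.35-fold for Nr4a1 and 1.73-fold for Ier2.

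The feedback genes, which end the response, were highest in the same 2 libraries as Nr4a1 and Ier2. Dusp1 (chr17:26505591-26508472), the MAP kinase phosphatase, stood at 77.3, 54.0, 44.4 and 51.7 CPM in CAL_Dll4i, at 40.5, 46.2, 47.6 and 35.4 CPM in CAL and at 42.3, 47.7, 77.8 and 44.0 CPM in control grafts. Zfp36 (chr7:28376784-28379228), the messenger RNA decay factor, stood at 102, 77.2, 71.3 and 62.8 CPM in CAL_Dll4i, at 76.1, 73.3, 81.6 and 74.5 CPM in CAL and at 70.98, 71.5, 107 and 69.4 CPM in control grafts. For both genes CAL_Dll4i replicate 1 and control replicate 3 stood alone at the top. Dusp1 overlaps Ergic1 on the other strand, pseudogenes on both strands and the intronic gene AC122252.1 on its own strand. Zfp36 overlaps the antisense gene Gm44710. The limit given for Jun holds for the overlaps on the other strand. For those on the strand of Dusp1 itself, counting by strand would not separate the reads either. In bulk tissue, fewer cells of a type and less RNA per cell cannot be told apart, nor can more cells of a type and more RNA per cell.

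**Figure D1:**
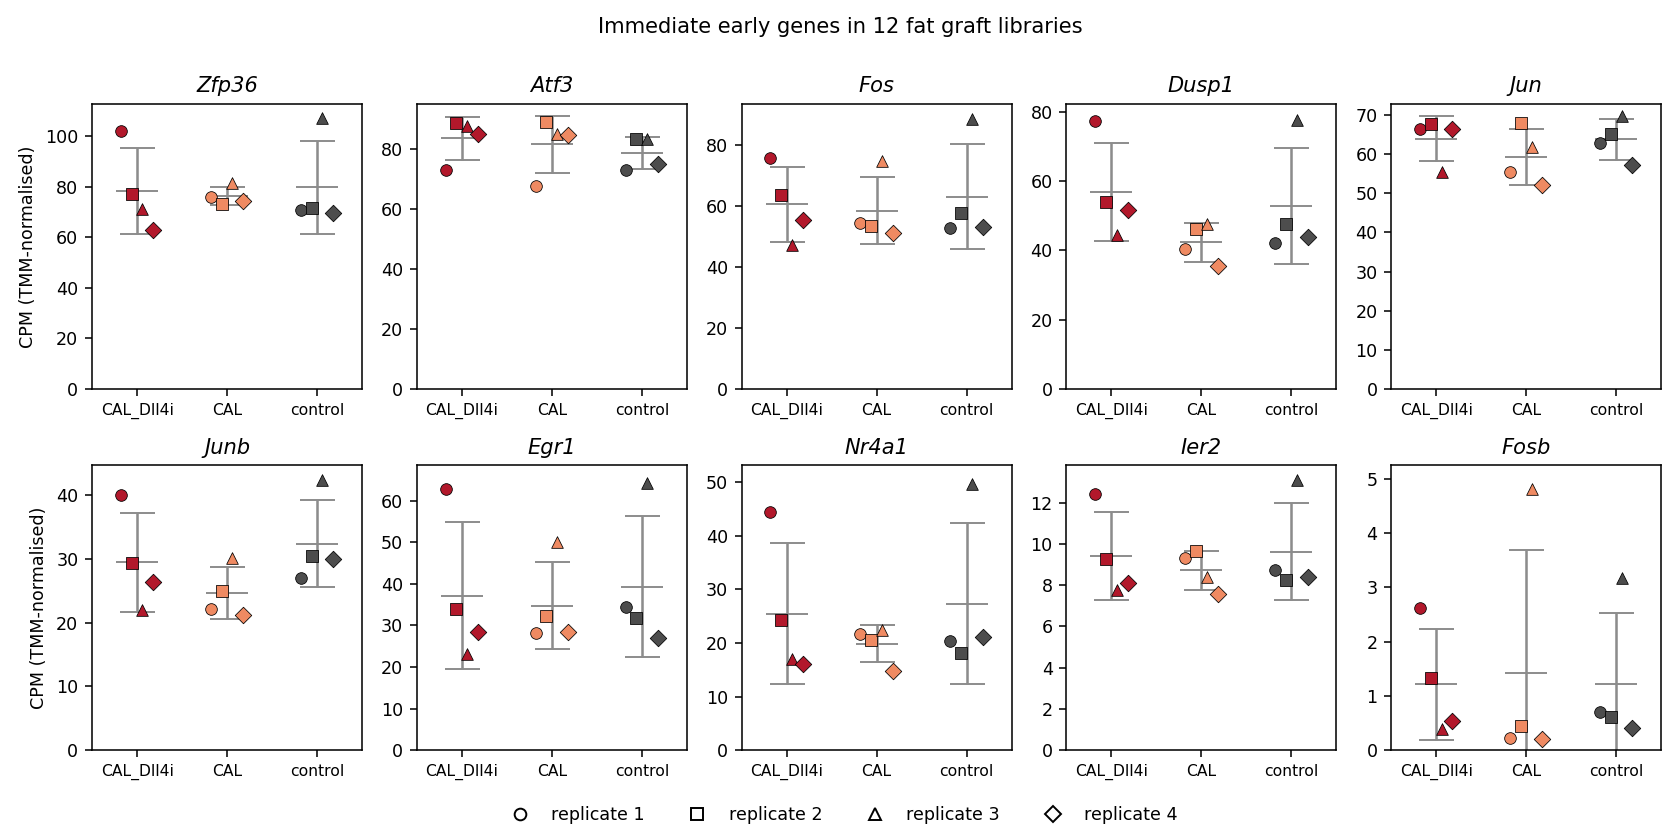
Level of each immediate early gene in CPM (vertical axes, each from 0) in CAL_Dll4i, CAL and control grafts. Each symbol is 1 library, its shape giving the replicate number, and grey bars give mean ± SD of 4 libraries, drawn only above 0; control replicate 3 is top of its group for 9 genes and CAL_Dll4i replicate 1 for 8.

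The spread inside the groups was wide for most of these genes when set against genes of like level. Within groups the SD of log2 CPM was 1.55 for Fosb, 0.57 for Nr4a1, 0.53 for Egr1, 0.33 for Dusp1 and 0.30 for both Fos and Junb, against a median of 0.18 over all tested genes. It was 0.27 for Ier2, 0.25 for Zfp36 and 0.14 for both Jun and Atf3. Among genes within 0.5 log2 units of its own level, Fosb was more variable than 98.5%, Egr1 than 96.2%, Nr4a1 than 95.4%, Fos than 94.0% and Dusp1 than 93.9%. For Zfp36 that share was 92.3%, for Junb 88.4%, for Atf3 75.5%, for Jun 73.8% and for Ier2 71.4%. The biological coefficient of variation fitted over all genes was 0.237.

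**Figure D2:**
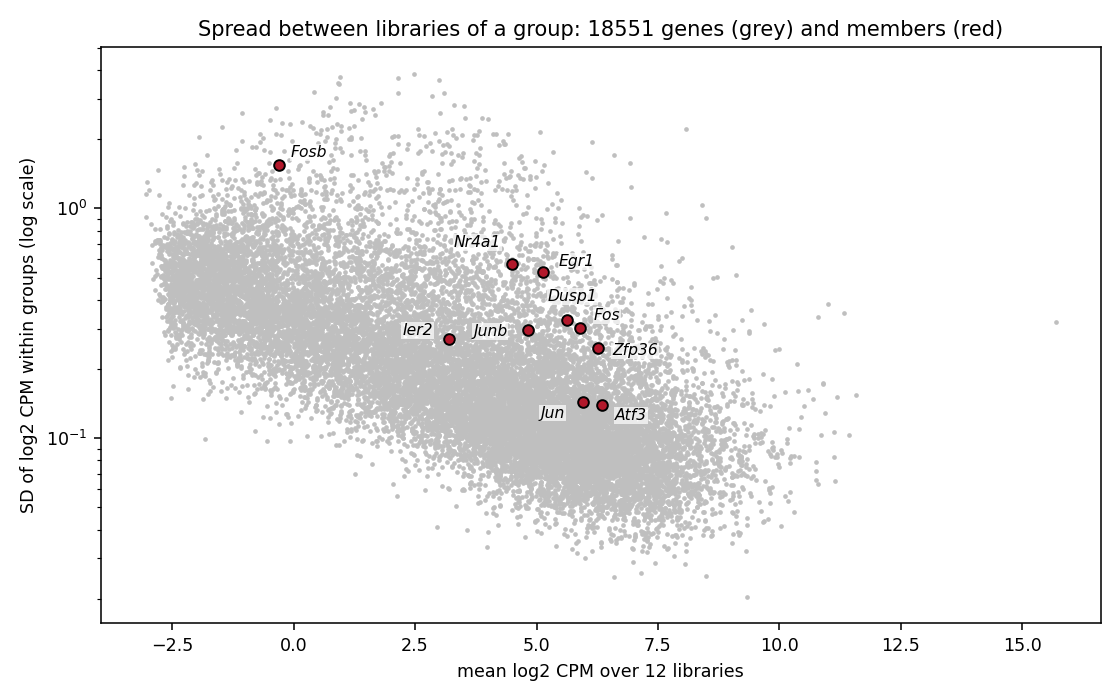
Mean log2 CPM over 12 libraries (horizontal axis) against the SD of log2 CPM within groups (vertical axis, log scale) for 18551 tested genes in grey and the 10 immediate early genes in red. Fosb, Nr4a1 and Egr1 lie near the upper edge for their level, with SDs of 1.55, 0.57 and 0.53, and Jun and Atf3 lie lowest of the 10 at 0.14.

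Added ASC alone made no detectable difference to the immediate early genes. In CAL against control grafts, 8 of 10 had an estimate below 0, but none passed an adjusted p of 0.05 in the edgeR quasi-likelihood test, Benjamini-Hochberg adjusted over 18551 genes (0.00539% of all genes passed, 1 gene). At an unadjusted p under 0.05 edgeR counted 0 of the 10, against 14.6% of all genes, DESeq2 counted 1 and voom 0, and neither DESeq2 nor voom called any after adjustment. Estimates below 0 made up 51.6% of all genes. No member's groups stood without overlap, against 7.35% of all genes. The median log2 fold change of the 10 was -0.12, against -0.01 over all genes.

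Junb came nearest in CAL against control grafts, at 24.6 ± 4.04 CPM in CAL and 32.4 ± 6.77 CPM in control grafts (SD, n = 4 libraries each). Its log2 fold change was -0.40 ± 0.19 (SE, edgeR adjusted p = 0.373), with a 95% interval of -0.82 to 0.03. Nr4a1 was estimated at -0.46 ± 0.39 (interval -1.32 to 0.40) and Dusp1 at -0.32 ± 0.22 (-0.79 to 0.15), with edgeR adjusted p-values of 0.618 and 0.523. Fosb, at 0.23 ± 1.08, had an interval of -2.17 to 2.62, so changes of several fold in either direction were not detectable at this spread. Jun and Atf3 were bounded most tightly, at -0.31 to 0.10 and -0.15 to 0.25 on the log2 scale. Estimates for Egr1, Ier2, Fos and Zfp36 were -0.18 ± 0.36, -0.14 ± 0.18, -0.11 ± 0.20 and -0.06 ± 0.16.

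Most of these signs depended on control replicate 3. Without it, 3 of 10 estimates lay below 0 in CAL against control grafts, and the median was 0.06. The estimates then were 0.00 for Nr4a1, -0.07 for Dusp1, -0.24 for Junb and 1.32 for Fosb. Without CAL replicate 3 in its place, Fosb moved to -2.05 and 9 of 10 lay below 0. Without the highest library of each group, 7 of 10 lay below 0 and none was called. Junb alone then had an unadjusted p under 0.05 (log2 fold change -0.35 ± 0.12, edgeR adjusted p = 0.213), when 14.8% of all genes did. Those libraries were picked by the values of these 10 genes, a choice that can narrow the spread. The p-value is therefore descriptive, and the share of all genes is not a like comparison.

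Dll4 inhibition on top of ASC likewise made no detectable difference. In CAL_Dll4i against CAL grafts 9 of 10 estimates lay above 0, against 51.3% of all genes, and edgeR called 0 of 10 and 0% of all genes. At an unadjusted p under 0.05 edgeR counted 0 of the 10, against 7.42% of all genes, DESeq2 counted 1 and voom 0. No member's groups stood without overlap (3.34% of all genes did), and the median log2 fold change was 0.10, against 0.00 over all genes. Dusp1 had the smallest p: it averaged 56.9 ± 14.2 CPM in CAL_Dll4i and 42.4 ± 5.59 CPM in CAL grafts, a log2 fold change of 0.42 ± 0.22 (interval -0.05 to 0.90, edgeR adjusted p = 0.688). Nr4a1 was estimated at 0.36 ± 0.39 and Junb at 0.26 ± 0.19. Jun and Ier2 were both at 0.11, and Egr1, Fos, Zfp36 and Atf3 lay between 0.04 and 0.09. Fosb was estimated at -0.23 ± 1.08.

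Several of these signs depended on CAL_Dll4i replicate 1. Without it, 4 of 10 estimates lay above 0 in CAL_Dll4i against CAL grafts, and the median was -0.06. Dusp1 was then at 0.24, Nr4a1 at -0.05 and Egr1 at -0.28. Without CAL replicate 3, Fosb was at 2.05 and all 10 estimates lay above 0. Without the highest library of each group, edgeR called none. Fosb (1.35 ± 0.51, edgeR adjusted p = 0.486) and Dusp1 (0.30 ± 0.11, edgeR adjusted p = 0.484) then had an unadjusted p under 0.05, when 9.52% of all genes did. Since the libraries left out were picked by the values of these 10 genes, which can narrow the spread, these p-values are descriptive. The share of all genes is again not a like comparison.

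The combined treatment also made no detectable difference. In CAL_Dll4i against control grafts all 10 estimates lay between -0.14 for Junb and 0.10 for Dusp1, and edgeR called 0 of 10 and 0% of all genes. At an unadjusted p under 0.05 edgeR, DESeq2 and voom each counted 0 of 10, against 6.92% of all genes by edgeR. Estimates below 0 numbered 7 of 10, against 50.4% of all genes, and no member's groups stood without overlap, against 4.77% of all genes. The smallest edgeR adjusted p was 0.851, for Atf3, which averaged 83.6 ± 7.17 CPM in CAL_Dll4i and 78.7 ± 5.49 CPM in control grafts. Without control replicate 3 all 10 estimates lay above 0, and without CAL_Dll4i replicate 1 only Atf3 did. Without the highest library of each group, 5 of 10 lay above 0 and 5 below, at a median of 0.011. EdgeR then called none, at a smallest adjusted p of 0.630, and counted 0 of 10 at an unadjusted p under 0.05, when 8.93% of all genes did. These p-values too are descriptive, since the libraries left out were picked by the values of these 10 genes. The 3 comparisons share libraries, so a library that is high in one group moves the comparisons that contain it together.

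**Figure D3:**
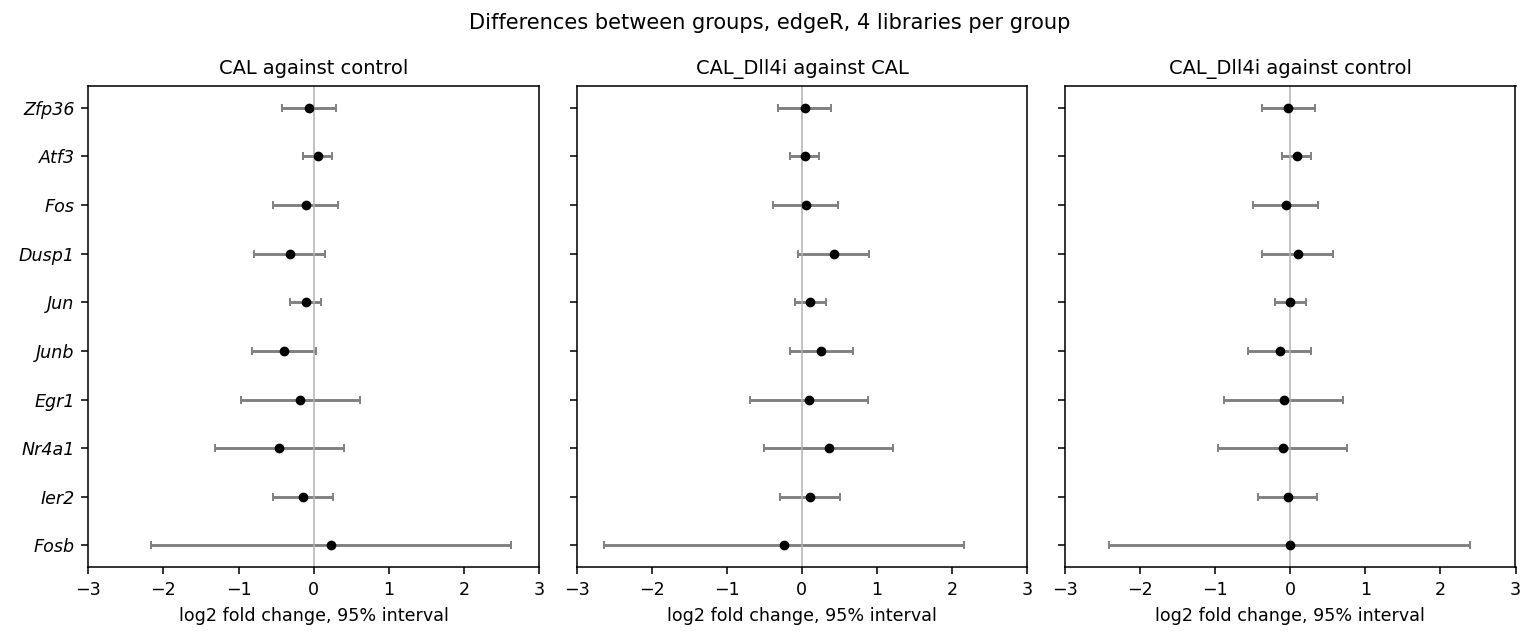
Log2 fold change (horizontal axes) of each immediate early gene in each of the 3 comparisons, named above the panels, with 95% intervals from edgeR, 4 libraries per group. Every interval spans 0, and the interval of Fosb, -2.17 to 2.62 in CAL against control grafts, is the widest.

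For Junb, Egr1, Ier2, Dusp1, Nr4a1 and Zfp36, the widest gap between neighbouring libraries on the log2 CPM scale set 2 or 3 high libraries apart from the rest and took 37.1% to 50.2% of the gene's whole range. No correlation between pairs of immediate early genes over all 12 libraries is therefore given. Pairs were compared over the 9 libraries left without the highest of each group. Among those 45 pairs, Pearson's r of log2 CPM was positive in 38, with a median of 0.46. None passed an exact permutation test adjusted over 45 pairs, while 9 had an unadjusted p under 0.05 for r and 7 for Spearman's rho. Leaving out libraries by the mean of the same genes can remove variation that the genes share. The lack of passing pairs therefore cannot show that these genes vary independently. The closest pair was Ier2 and Nr4a1, with r = 0.847 and rho = 0.833 (exact permutation p adjusted over 45 pairs 0.109 and 0.186, n = 9 libraries), and r was 0.933 without the 2 libraries farthest from the median of Ier2. Jun and Dusp1 followed with r = 0.834 and rho = 0.833 (exact permutation p adjusted over 45 pairs 0.109 and 0.186), and r was 0.639 without 2 libraries.

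The 7 pairs with r below 0 all held Atf3 or Zfp36. Atf3 stood between -0.31 with Nr4a1 and 0.43 with Dusp1. Zfp36 stood at -0.30 with Dusp1 and at -0.22 with both Jun and Junb. Both genes of a pair share each library's depth and scaling, and the libraries left out were chosen by the mean of the same genes.

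**Figure D4:**
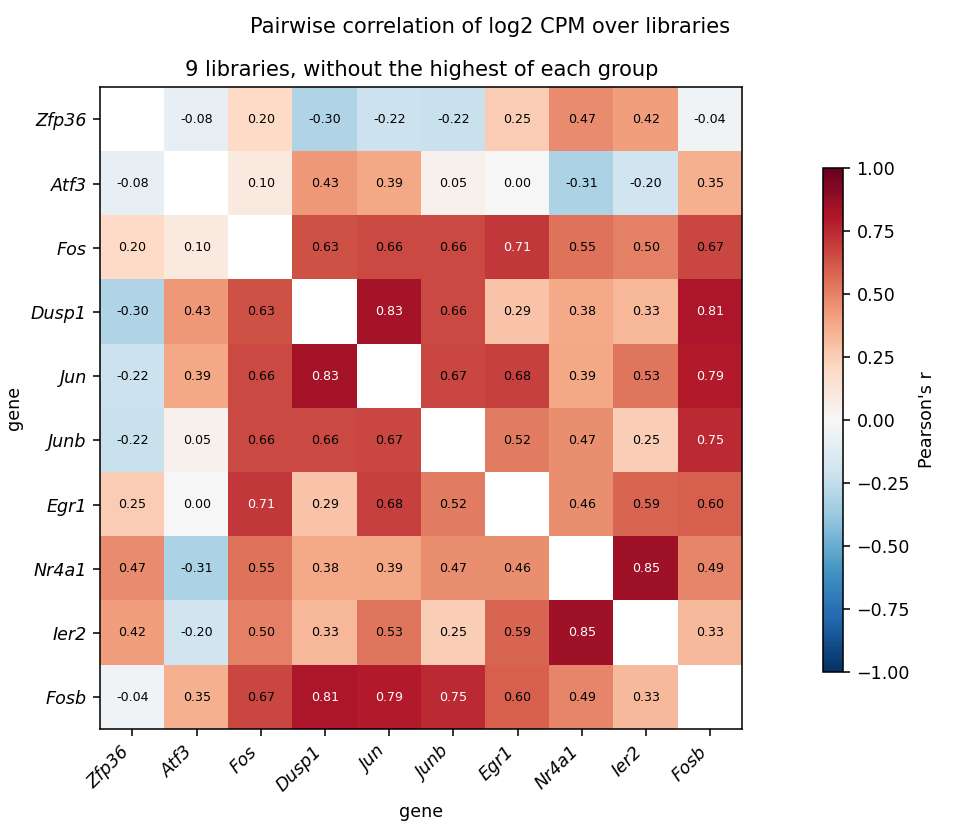
Pearson's r of log2 CPM (colour and printed value) for pairs of immediate early genes over 9 libraries, without the highest library of each group. Ier2 with Nr4a1 is the strongest pair at 0.85, and the negative values all lie in the rows of Atf3 and Zfp36.

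The 5 other genes most like the 10 in their pattern over 12 libraries were taken by Pearson's r with the mean of their standardised log2 CPM, used here only to rank genes. These were Has1 (hyaluronan synthase), at r = 0.913, Rab11fip5 at 0.907, the neutrophil-attracting chemokine Cxcl1 at 0.893, the aminotransferase Got1 at 0.892 and Trib1, a pseudokinase of the Tribbles family, at 0.891. Of 18541 other genes, 2 exceeded 0.9 and 73 (0.394%) exceeded 0.8. Without the highest library of each group the r values were 0.792, 0.650, 0.673, 0.411 and 0.711 in the same order of genes. Cxcl1 stood at 14.6, 5.91, 2.59 and 5.78 CPM in CAL_Dll4i, at 1.43, 4.44, 6.66 and 1.63 CPM in CAL and at 4.56, 5.36, 17.1 and 6.13 CPM in control grafts. Has1 reached 8.41 CPM in CAL_Dll4i replicate 1 and 15.9 CPM in control replicate 3, against 4.99 CPM in CAL replicate 3. When values were first centred on their group means, the 5 were Rab11fip5, Ereg, Has1, Trib1 and Il6.

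**Figure D5:**
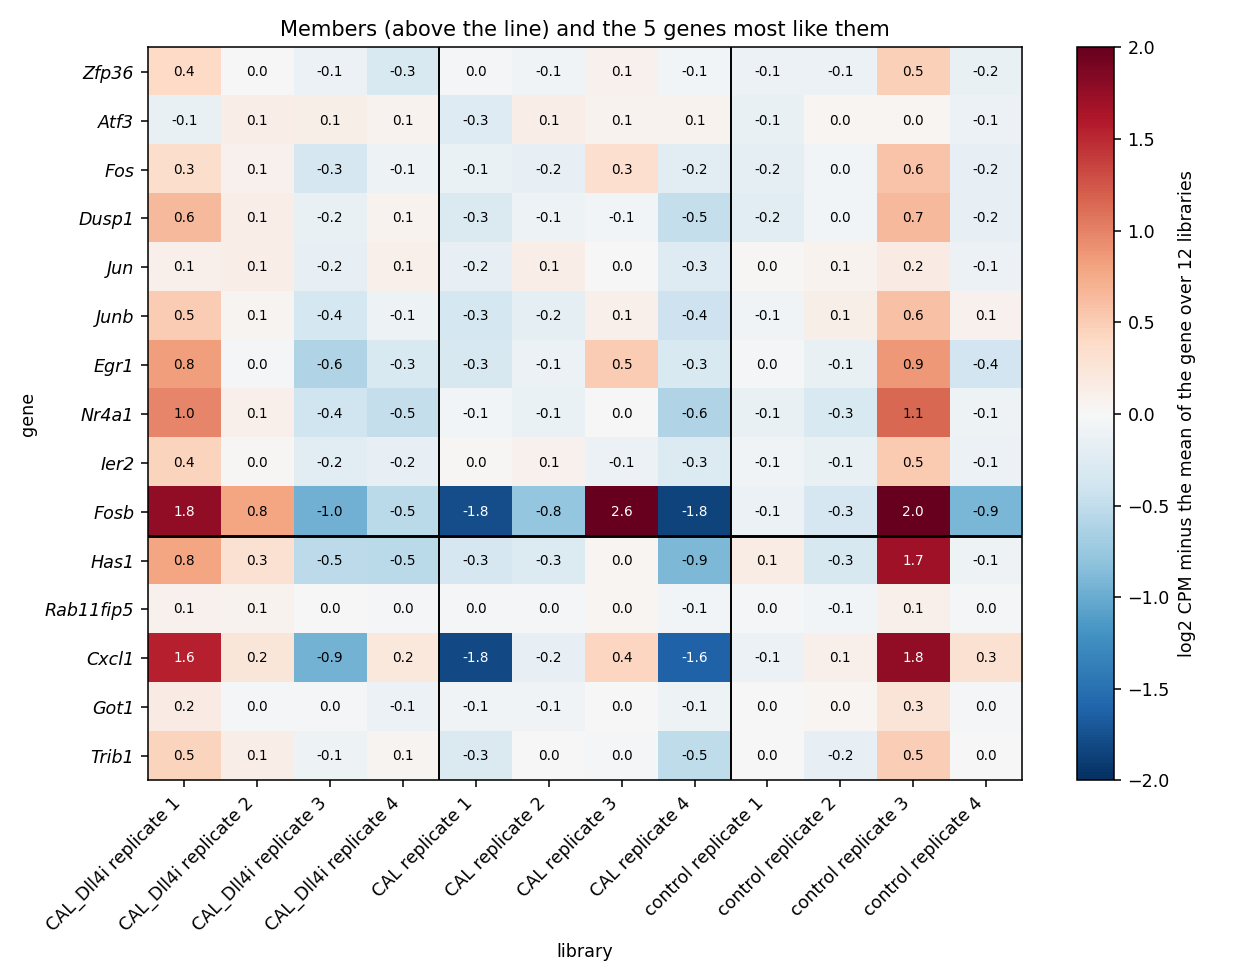
Log2 CPM of each gene minus its mean over 12 libraries (colour and printed value) for the 10 immediate early genes (above the line) and the 5 genes most like them, in CAL_Dll4i, CAL and control libraries. CAL_Dll4i replicate 1 and control replicate 3 are red in most rows, and CAL replicate 3 is strongly so for Fosb, which reached 4.81 CPM there.

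Cell type markers were measured in the same high libraries. In CAL_Dll4i replicate 1, keratinocyte markers summed to 348.6 CPM over 5 genes and mural markers to 452.3 CPM over 6, both above the other 9 libraries (3.36 to 185.5 and 248.3 to 438.6 CPM). In CAL replicate 3, endothelial markers summed to 257.5 CPM over 7 genes and red cell markers to 259.8 CPM over 5, both below the other 9 (298.5 to 388.5 and 320.0 to 1091 CPM). In control replicate 3, endothelial markers summed to 434.2 CPM and red cell markers to 1393 CPM, both above the other 9. Macrophage markers summed over 5 genes to 3332 CPM in CAL_Dll4i replicate 1, 3887 CPM in CAL replicate 3 and 3712 CPM in control replicate 3, against 3348 to 3870 CPM in the other 9. Adipocyte, fibroblast, neutrophil, T cell and mast cell markers lay within the range of the other 9 in each of the 3 libraries. B cell markers did so in CAL_Dll4i replicate 1 and CAL replicate 3 but lay below it in control replicate 3 (154.8 CPM, against 164.8 to 531.2). Skeletal muscle markers stood at 17.5 CPM in CAL_Dll4i replicate 1 and at 3.09 and 3.05 CPM in CAL replicate 3 and control replicate 3, against 3.98 to 658.7 CPM in the other 9. The part of any of these cell types in the height of the libraries was not tested. By group, adipocyte markers summed over 10 genes to 1347 to 1783 CPM in CAL_Dll4i, 1855 to 2679 CPM in CAL and 775.8 to 1778 CPM in control grafts. CAL thus lay above both other groups without overlap. The part of adipocyte RNA in the comparisons between groups was not tested.

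Relatives and targets of the 10 genes were described by 8 lists chosen with earlier results of these data known, holding 120 tested genes in all. EdgeR called 0 of the 120 in each comparison and voom none, while DESeq2 called Npas4 and Il6 in CAL against control grafts and none in the other comparisons. At an unadjusted p under 0.05 edgeR counted 23 of 120 in CAL against control (14.6% of all genes), 19 in CAL_Dll4i against CAL (7.42% of all genes) and 3 in CAL_Dll4i against control (6.92% of all genes). Over all genes, 51.6% of estimates lay below 0 in CAL against control, 51.3% above 0 in CAL_Dll4i against CAL and 50.4% below 0 in CAL_Dll4i against control. Among 12 AP-1 partners, 8 estimates lay below 0 in CAL against control grafts, at a median of -0.11 on the log2 scale, and 2 had an unadjusted p under 0.05, a share near that of all genes (14.6%). Fosl2, a Fos relative prominent in fat and bone, stood at 33.3 ± 7.55 CPM in CAL and 48.9 ± 12.8 CPM in control grafts (-0.55 ± 0.20, edgeR adjusted p = 0.261). Fosl1, the Fra-1 gene, stood at 6.60 ± 3.62 CPM in CAL and 14.0 ± 2.82 CPM in control grafts (-1.09 ± 0.44, edgeR adjusted p = 0.300), and Batf at -0.29 ± 0.14. In CAL_Dll4i against CAL grafts 7 of 12 lay above 0 (median 0.08), led by Fosl2 (0.51 ± 0.20), Fosl1 (0.81 ± 0.44) and Jdp2 (0.30 ± 0.17), with edgeR adjusted p-values of 0.659 to 0.724. In CAL_Dll4i against control grafts 9 of 12 lay below 0 (median -0.05), led by Batf, Batf2 and Atf2.

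EGR and NR4A relatives and their NAB corepressors counted 6 tested genes, of which 4 lay below 0 in CAL against control grafts (median -0.11), 4 above 0 in CAL_Dll4i against CAL (0.04) and 4 below 0 in CAL_Dll4i against control (-0.08). The smallest p belonged to Nab1, at 73.6 ± 1.42 CPM in CAL and 78.8 ± 2.00 CPM in control grafts (-0.10 ± 0.05, edgeR adjusted p = 0.355). The other leading genes were Egr3 and Nr4a3 in CAL against control grafts, Egr2 and Nab2 in CAL_Dll4i against CAL, and Egr2, Egr3 and Nr4a3 in CAL_Dll4i against control. Among 33 other early response genes, 27 lay below 0 in CAL against control grafts (median -0.18), 27 above 0 in CAL_Dll4i against CAL (0.16) and 19 below 0 in CAL_Dll4i against control (-0.01). Plk3, a stress-responsive kinase, stood at 26.5 ± 6.13 CPM in CAL and 40.8 ± 3.86 CPM in control grafts (-0.63 ± 0.20, edgeR adjusted p = 0.219). Per1, a clock gene that hormones also induce at once, stood at 49.6 ± 10.5 CPM in CAL_Dll4i and 35.1 ± 1.23 CPM in CAL grafts (0.50 ± 0.16, edgeR adjusted p = 0.659). Id1, with Plk3, led the genes below 0 in CAL against control grafts, Ppp1r15a and Plk3 led with Per1 in CAL_Dll4i against CAL, and Mcl1 and Per1 were among the leaders in CAL_Dll4i against control.

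Npas4, an activity-induced transcription factor best known from neurons, went the other way in CAL against control grafts. It stood at 9.26, 14.1, 11.96 and 18.4 CPM in CAL replicates 1 to 4 and at 4.80, 5.84, 4.58 and 4.03 CPM in control replicates 1 to 4, so these groups did not overlap. Its log2 fold change was 1.48 ± 0.32 (edgeR adjusted p = 0.132), while DESeq2 gave an adjusted p of 0.000459, and over all alternatives the estimate lay between 1.29 and 1.66. In CAL_Dll4i grafts it stood at 5.21, 9.78, 17.0 and 8.61 CPM, which was 1.08 ± 0.32 against control grafts on the log2 scale (edgeR adjusted p = 0.706). Within CAL_Dll4i grafts Npas4 was lowest in replicate 1, the library of that group with the highest immediate early mean. Within CAL grafts it was highest in replicate 4, the library of that group with the lowest immediate early mean. It was lowest there in replicate 1, not in replicate 3, which had the highest immediate early mean. Within control grafts Npas4 was lowest in replicate 4, which also had the lowest immediate early mean. The 3 groups thus showed no common direction.

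Dual-specificity phosphatases related to Dusp1 counted 9 tested genes, of which 7 lay below 0 in CAL against control grafts (median -0.14), 7 above 0 in CAL_Dll4i against CAL (0.15) and 5 below 0 in CAL_Dll4i against control (-0.03). Dusp4, a nuclear MAP kinase phosphatase, stood at 8.60 ± 2.17 CPM in CAL and 13.3 ± 2.68 CPM in control grafts (-0.62 ± 0.22, edgeR adjusted p = 0.240). Dusp10, which acts on p38 and JNK, stood at 14.8 ± 4.58 CPM in CAL_Dll4i and 21.6 ± 5.70 CPM in CAL grafts (-0.54 ± 0.21, edgeR adjusted p = 0.659). Dusp6, Dusp16, Dusp7 and Dusp14 were the other leading genes. Relatives and decay partners of Zfp36 counted 10 tested genes with medians of 0.02, -0.03 and 0.01 in the same comparisons, led by Cnot6, Khsrp, Hnrnpd, Cnot1, Pum2 and Elavl1. The 19 kinases and transcription factors upstream of the immediate early genes had medians of -0.02, 0.01 and -0.01. Elk3, an ETS partner of SRF, stood at 58.9 ± 6.43 CPM in CAL and 71.03 ± 5.47 CPM in control grafts (-0.27 ± 0.09, edgeR adjusted p = 0.215), and Crem, a CREB relative, was at -0.31 ± 0.10. Rps6ka3, Elk1, Map2k1 and Mapk9 were the other leading genes.

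Transcripts that carry AU-rich elements bound by tristetraprolin, or that are AP-1 targets, had the median farthest from 0 of the 8 lists in all 3 comparisons, with no gene called by edgeR or voom and Il6 called by DESeq2 in CAL against control grafts. All 21 lay below 0 in CAL against control grafts, against 51.6% of all genes, with a median of -0.59, and 7 had an unadjusted p under 0.05 in edgeR, against 14.6% of all genes. The list was chosen with earlier results of these data known, so its direction is not independent evidence. In CAL_Dll4i against CAL grafts 19 of 21 lay above 0 (median 0.56), and in CAL_Dll4i against control grafts 16 of 21 lay below 0 (median -0.17). Without the highest library of each group, 20 of 21 lay below 0 in CAL against control grafts with a median of -0.56, and 17 of 21 above 0 in CAL_Dll4i against CAL with a median of 0.53. The inflammatory cytokine gene Il6 stood at 0.585, 0.844, 0.930 and 0.623 CPM in CAL and at 1.67, 1.57, 16.4 and 2.03 CPM in control grafts, without overlap. Its log2 fold change was -2.86 ± 0.89 (edgeR adjusted p = 0.209, DESeq2 adjusted p = 0.0286), and -1.36 without the highest library of each group. Il1b, another inflammatory cytokine gene, stood at 75.4 ± 33.7 CPM in CAL_Dll4i and 39.1 ± 18.4 CPM in CAL grafts (0.95 ± 0.39, edgeR adjusted p = 0.659).

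Among the matrix and adhesion genes of that list, Plaur, the urokinase receptor gene, stood at 44.8 ± 5.97 CPM in CAL and 59.6 ± 4.33 CPM in control grafts (-0.41 ± 0.14, edgeR adjusted p = 0.229). Spp1, the osteopontin gene, stood at 876 ± 112 CPM in CAL_Dll4i and 529.8 ± 147 CPM in CAL grafts (0.73 ± 0.23, edgeR adjusted p = 0.659). Mmp9, a gelatinase abundant in neutrophils, stood at 25.8 ± 12.6 CPM in CAL and 56.2 ± 20.7 CPM in control grafts (-1.12 ± 0.39, edgeR adjusted p = 0.247), and in CAL_Dll4i against control grafts Ccl2, Csf2 and Plaur led. Neutrophil markers, 8 genes that include Mmp9, moved alongside: they summed to 227.0 to 311.5 CPM in CAL_Dll4i, 115.8 to 236.7 CPM in CAL and 227.4 to 427.4 CPM in control grafts. Their part in this list was not tested.

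Heat shock genes, which respond to stress through another factor, counted 10 tested genes. Of these, 7 lay below 0 in CAL against control grafts (median -0.07), 9 above 0 in CAL_Dll4i against CAL (0.08) and 8 above 0 in CAL_Dll4i against control (0.07). Hspa1a stood at 32.0, 36.3, 37.3 and 38.7 CPM in CAL_Dll4i, at 12.1, 28.98, 19.4 and 10.6 CPM in CAL and at 18.3, 33.8, 23.3 and 28.8 CPM in control grafts. CAL_Dll4i lay above CAL without overlap (1.02 ± 0.29, edgeR adjusted p = 0.659). Hspa1b, a near-identical copy whose reads cannot be cleanly separated from those of Hspa1a, gave the same estimate, and Hspb1 and Hspa8 were the other leading genes. In Hspa1a the libraries with high immediate early values were not the highest of their groups. CAL_Dll4i replicate 1 was the lowest of its group, and CAL replicate 3 and control replicate 3 lay inside theirs. This describes Hspa1a alone and not the whole list.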

How the data were processed

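RNA of 12 fat graft samples was extracted with Trizol and made into libraries with a SureSelectXT RNA Direct kit, per the labels' protocols. HISAT2, StringTie and the mm10 build are named, without versions, in the submitters' processing notes. The deposited table gives estimated counts, FPKM and TPM per library, per the file headers. The deposited estimated counts are whole numbers without scaling, so rounding changed none. The deposited TPM values, scaled by the authors for length and depth, were used for levels between genes, and the deposited FPKM values were not tested. The sources used here do not say whether counting used strand.

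Tests were run on the counts with edgeR 4.0.16 in R 4.3.3 (TMM, filterByExpr defaults, robust quasi-likelihood test, 1 fit over 12 libraries, Benjamini-Hochberg over 18551 genes, called under 0.05). CPM values are TMM-normalised. On simulated counts for CAL against control (18482 genes), 33.8%, 54.4% and 93.9% of genes changed 1.5-fold, 2-fold and 4-fold were recovered, with 3 false calls. The changed genes were picked at random and counts were drawn independently for each gene. The immediate early genes spread more than most genes of like level, so these shares need not hold for them. The precision of the group means is limited by 4 libraries per group. Correlations over 9 libraries used exact permutation tests over all 362880 orders.

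All 10 genes are named in each comparison, with the 3 genes of smallest p in each further list and the 5 genes most like them. The genes and lists were chosen with earlier results of these data known. Alternatives were upper-quartile and RLE scaling, a filter at 1 CPM in 4 libraries or none, voom with sample weights (limma 3.58.1), DESeq2 1.42.0, a replicate block, a fit to only the groups compared, summed symbols, libraries with muscle RNA left out, and each library left out in turn. Leaving out the highest library of each group was added after seeing the data. Figures used Python 3.11.15 and matplotlib 3.10.9.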

Additional observations from a re-analysis of the deposited data

Results flagged for a closer look

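Each of the 10 genes was examined in each of the 3 groups for a library far from the other 3 of its group, by its gap to the nearest library as a share of the range (Dixon's test). Of these 30 sets of 4 libraries 9 were flagged, where chance flags about 1 in 20 sets of independent, normally distributed values. The sets here are not independent, since the 10 genes were measured in the same 12 libraries. The count of 9 therefore cannot be read against that rate. Control replicate 3 was the high library in 6 of them: Fos at 88.5 CPM, Fosb at 3.17 CPM, Ier2 at 13.1 CPM, Dusp1 at 77.8 CPM, Nr4a1 at 49.7 CPM and Zfp36 at 107 CPM. CAL replicate 3 was flagged for Fos at 74.8 CPM and Fosb at 4.81 CPM. CAL_Dll4i replicate 3 was flagged as low for Jun, at 55.3 CPM.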

How the results depend on the processing

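No alternative called any of the 10 genes in any comparison. Over 30 estimates and 23 alternatives each (690 values), 617 kept their sign, 73 changed it (41 of these with 1 library left out), and the smallest adjusted p was 0.213. Apart from Fosb, no estimate that changed sign exceeded 0.36 in size. The values that changed sign are log2 fold changes. With voom and sample weights they were, in CAL against control Fos 0.013, Egr1 0.071, Zfp36 0.056; in CAL_Dll4i against CAL Fosb 0.37, Egr1 -0.047, Zfp36 -0.058; in CAL_Dll4i against control Fos 0.040, Fosb 0.38, Egr1 0.024, Ier2 0.051, Nr4a1 0.046. Without the libraries with muscle RNA they were, in CAL_Dll4i against CAL Atf3 -0.045, Cnot6 -0.0061, Pum2 -0.0019; in CAL_Dll4i against control Fos 0.044, Fosb 0.28, Egr1 0.085, Ier2 0.047, Nr4a1 0.050, Zfp36 0.018. Without the highest library of each group they were, in CAL against control Fosb -0.96, Ier2 0.066, Zfp36 0.080; in CAL_Dll4i against CAL Fosb 1.35, Egr1 -0.054, Ier2 -0.077, Zfp36 -0.083, Nab2 0.021; in CAL_Dll4i against control Fos 0.025, Fosb 0.38. In CAL_Dll4i against control, Fosb was 0.013 with upper-quartile scaling and 0.0033 with a filter at 1 CPM. The causes of these changes were not tested.

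With each library left out in turn, the ranges that crossed 0 were, in CAL against control, Egr1 -0.41 to 0.16, Fos -0.25 to 0.10, Fosb -2.05 to 1.32, Ier2 -0.21 to 0.047, Nr4a1 -0.61 to 0.0018, Zfp36 -0.12 to 0.11; in CAL_Dll4i against CAL, Atf3 -0.045 to 0.095, Egr1 -0.28 to 0.32, Fos -0.077 to 0.19, Fosb -0.94 to 2.05, Ier2 -0.058 to 0.19, Nab2 -0.094 to 0.011, Nr4a1 -0.054 to 0.52, Zfp36 -0.12 to 0.13; in CAL_Dll4i against control, Dusp1 -0.081 to 0.35, Egr1 -0.46 to 0.26, Fos -0.18 to 0.15, Fosb -0.71 to 1.09, Ier2 -0.20 to 0.15, Jun -0.043 to 0.068, Junb -0.32 to 0.017, Nr4a1 -0.51 to 0.36, Zfp36 -0.18 to 0.15.

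Genes called over the whole table in CAL against control numbered 1 as reported, 616 with DESeq2, 88 with voom, 0 with only the groups compared, 0 without the libraries with muscle RNA, 22 without the highest library of each group, and 0 to 6 with 1 library left out. DESeq2 called 1 gene in CAL_Dll4i against CAL and 61 in CAL_Dll4i against control, where edgeR called 0. DESeq2 called Npas4 (1.48) and Il6 (-2.86) in CAL against control. Correlations between pairs of the 10 genes over all 12 libraries were planned but are not given, because high libraries stand apart for most genes. Over 9 libraries 0 of 45 pairs passed the adjusted threshold, a count limited by leaving out libraries chosen by the same genes. Of the 5 genes most like the 10, 3 were shared when values were centred on group means.

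Same-numbered libraries of different groups correlated at -0.385 to 0.144 in their deviations from the group means (12 pairs). Differently numbered libraries correlated at -0.307 to 0.435. Weak correlations cannot exclude that a number marks a shared animal, day or batch, and the labels do not say. With the replicate number as a block, 0 of the 10 genes were called in each comparison and 1, 0 and 0 genes of the whole table. Fosb then stood at -0.26 in CAL against control, 1.00 in CAL_Dll4i against CAL and 0.74 in CAL_Dll4i against control, and no other sign of the 10 genes changed. Fosb, with 13 to 326 counts per library, is the gene that depth limits most.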
